A study of Mus musculus with 18 samples.

Results

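The respiratory chain of mitochondria was described in microglia through 39 listed nuclear genes that encode subunits of complexes I to V and cytochrome c. A listed gene was read from the probe sets that name it alone, and where several did, the brightest on average stood for the gene. On the array 38 of the 39 genes were measured in this way, and all 38 were bright enough to be tested, among 11630 tested genes. Cox7b, a complex IV subunit, had no probe set of its own and has no value here. The measured genes comprise 19 of complex I, 4 of complex II, 5 of complex III, cytochrome c itself, 4 of complex IV and 5 of complex V.

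RNA came from microglia of E17.5 mouse embryos of the C57BL/6 background, sorted by FACS for the GFP of the Cx3cr1 locus from pooled hippocampi, and was pooled per pregnant dam. The 4 LPS arrays hold wild-type embryos of dams inflamed with lipopolysaccharide, and the 4 PBS arrays their wild-type controls. The 4 DAP12KO arrays hold untreated embryos with the DAP12-/- mutation, and the 6 UT arrays untreated wild-type embryos. All groups share the reporter sort, the sex is recorded as unknown, and the sources used here do not give the dose, route or timing of LPS. Labels also carry a year, whose meaning these sources do not give. It serves here as a batch, 1 being the earliest and 4 the latest. LPS and PBS arrays came in equal numbers from batches 1 (1 each), 2 (2 each) and 4 (1 each). All DAP12KO arrays and 4 UT arrays belong to batch 4, and the remaining 2 UT arrays make up batch 3. An array is written with its replicate number and batch.

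Complex I passes electrons from NADH, and complex II from succinate, to a quinone pool. Complex III passes them on to cytochrome c, and complex IV to oxygen. Protons pumped by complexes I, III and IV drive ATP synthesis by complex V. Complex II is encoded in the nucleus alone, whereas the other complexes combine nuclear and mitochondrial gene products. Microglia draw on both glycolysis and respiration, and inflammatory activation of macrophages and microglia is known to shift the balance between them.

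The sorted cells carried microglia genes at a high level. Of 18 listed microglia markers 16 were among the tested genes, which leave out dim ones, and Csf1r and Cx3cr1 were among these 16. Their mean log2 level was 12.88 to 13.92 except in PBS 1 and PBS 2 of batch 2, which had 11.75 and 11.99. In those 2 arrays the mean of 14 neuron markers was 10.02 and 10.11. It was 8.38 and 8.50 in the LPS arrays of batch 2 and 5.52 to 7.37 in the other batches. In the same 2 PBS arrays that of 11 progenitor and radial glia markers was 10.83 and 10.91. The Gapdh 3′ minus 5′ difference, which grows as RNA is more fragmented or reverse transcription less complete, was 2.01 to 3.33 in batches 1 and 2. It was 1.31 and 2.77 in batch 3 and 0.89 to 1.20 in batch 4, apart from UT 2 at 2.23. Tyrobp, the gene of DAP12, had log2 values of 13.75 to 14.23 in DAP12KO arrays and 14.29 to 14.55 in UT arrays. Where its probe set lies relative to the deleted part is not known here, so this reading does not check the genotype. The number of arrays limits the precision, and p-values measure the spread between these pooled samples.

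Promoters are shown for Cycs and for 3 of the 4 genes that passed a test between batches (Cyc1 is named only), because nuclear respiratory factors are known to bind near the starts of many such genes. Each stretch reaches from 250 bases before to 50 after a RefSeq gene start of GRCm38.p6 and is read 5′ to 3′ on the strand of the gene, with motif matches in capitals. Cycs encodes the somatic cytochrome c (minus strand of chr6:50566520-50566819). Its capitals mark the palindromic NRF1 core CGCATGCG, which starts 61 bases before the gene start.
Cycs: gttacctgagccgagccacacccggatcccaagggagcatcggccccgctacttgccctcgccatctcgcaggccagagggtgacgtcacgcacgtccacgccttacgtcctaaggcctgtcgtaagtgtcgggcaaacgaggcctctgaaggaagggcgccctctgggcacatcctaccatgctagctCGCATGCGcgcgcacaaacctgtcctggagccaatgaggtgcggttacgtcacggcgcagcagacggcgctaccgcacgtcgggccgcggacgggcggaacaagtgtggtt
Cox8a encodes the ubiquitous form of subunit VIII of complex IV (minus strand of chr19:7217567-7217866), and its capitals mark 2 copies of CTTCCGG, the reverse complement of the ETS core CCGGAAG bound by GABP.
Cox8a: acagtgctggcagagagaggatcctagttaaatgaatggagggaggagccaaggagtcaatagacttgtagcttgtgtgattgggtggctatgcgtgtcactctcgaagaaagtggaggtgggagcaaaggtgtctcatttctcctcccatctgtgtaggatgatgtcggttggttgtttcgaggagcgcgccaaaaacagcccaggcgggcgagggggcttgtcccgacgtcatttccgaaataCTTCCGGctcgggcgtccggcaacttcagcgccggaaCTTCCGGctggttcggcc
Cox5a encodes another complex IV subunit (plus strand of chr9:57520982-57521281). The start used for it lies inside the annotated span of the gene (chr9:57517328-57532427), and the window held none of the motifs searched.
Cox5a: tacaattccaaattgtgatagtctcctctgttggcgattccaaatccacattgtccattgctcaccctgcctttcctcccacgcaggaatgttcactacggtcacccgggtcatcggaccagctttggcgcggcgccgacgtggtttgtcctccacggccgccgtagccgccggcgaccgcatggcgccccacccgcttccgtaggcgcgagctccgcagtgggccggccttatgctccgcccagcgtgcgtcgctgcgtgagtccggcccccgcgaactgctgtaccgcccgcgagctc
Ndufc1, an accessory subunit of complex I (minus strand of chr3:51408906-51409205), held the YY1 core AAGATGGC 22 bases past its start.
Ndufc1: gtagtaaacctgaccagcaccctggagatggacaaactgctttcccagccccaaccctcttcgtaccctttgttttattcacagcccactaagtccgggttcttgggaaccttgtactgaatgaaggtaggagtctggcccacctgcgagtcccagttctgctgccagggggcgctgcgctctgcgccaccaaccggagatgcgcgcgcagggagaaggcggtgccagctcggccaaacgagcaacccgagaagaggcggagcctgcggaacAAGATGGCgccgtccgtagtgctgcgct
RefSeq promoters were at hand for 30 members. On either strand the NRF1 core was found in 3 of them (10%), against 2.07% of 27025 genes with a promoter and 4.42% of the 9465 tested ones. The ETS core was in 5 (16.7%, against 9.93% and 20.1%), the YY1 core in 5 (16.7%, against 3.19% and 5.45%), and the SP1 box GGGCGGG in 9 (30%, against 27.9% and 52.2%). Cycs, Ndufa8 and Uqcrc1 are the members with the NRF1 core, and Ndufa9, Ndufb8, Ndufc1, Ndufs4 and Ndufs7 those with the YY1 core. A match describes letters in this window and does not show binding. The YY1 core AAGATGGC contains ATG. In the 50 bases past gene starts it ran with the gene in 141 plus-strand and 143 minus-strand promoters. It ran against the gene in 42 and 47. The genes themselves lie on 17 chromosomes.

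All 38 subunits were well above the floor of the arrays. Their means over the 18 arrays lay between 8.94 and 14.15 on the log2 scale, and the lowest value of any member on any array was 7.47, for Uqcrfs1 in PBS 4 of batch 1. The SD over all arrays had a median of 0.52 for the members, against 1.00 for all tested genes and 0.72 for the 4244 tested genes with means at or above the lowest member mean. By complex the median SD was 0.52 in complex I, 0.33 in complex II, 0.73 in complex III, 0.52 in complex IV and 0.51 in complex V, and it was 0.52 for Cycs. Uqcrfs1, the Rieske iron-sulfur protein, and Cyc1, the cytochrome c1 that hands electrons to cytochrome c, belong to the variable complex III. Sdhd, a membrane anchor of complex II, stood between 12.44 and 12.51 in 14 of 18 arrays in its brightest probe set, in which several arrays share 1 identical value. Its other bright probe set ran from 6.87 to 11.68. Levels of different genes are not compared, since each probe set has its own response. In pooled cells fewer cells of a type and less RNA per cell cannot be told apart.

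**Figure D1:**
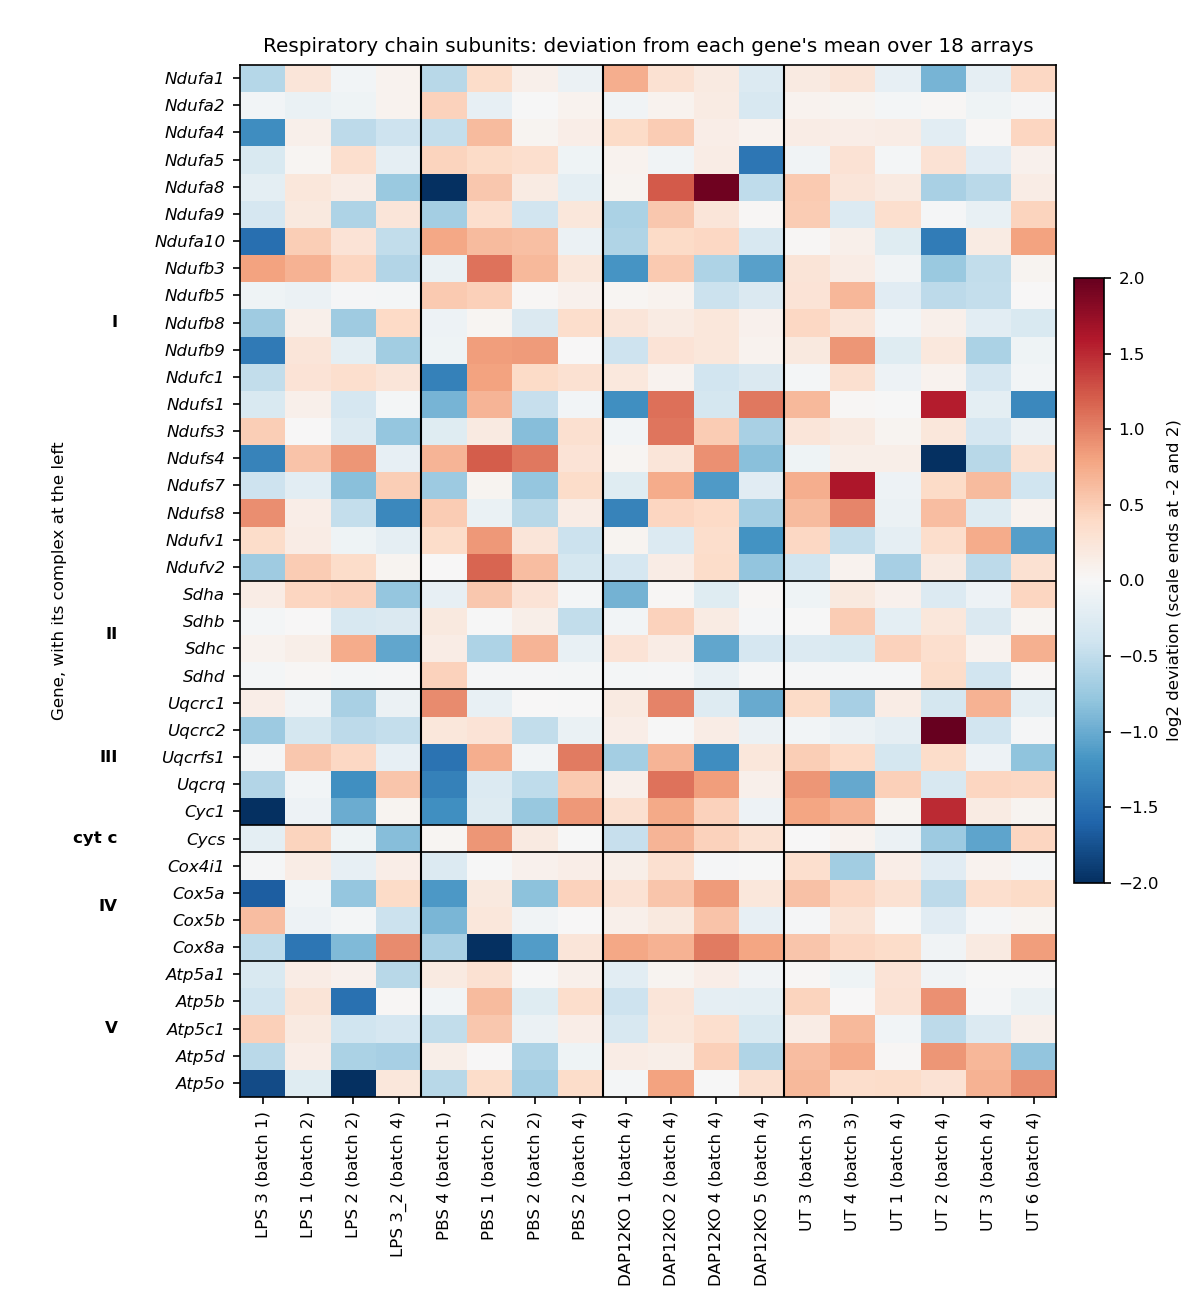
Deviation of each of the 38 measured subunits (rows, by complex) from its own mean over 18 arrays, in log2 units, with arrays in columns by group and batch. Cox8a is low in the LPS and PBS arrays of batch 2, and Uqcrc2 is high in UT 2 of batch 4 (15.49).

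LPS arrays were compared with PBS arrays to see how maternal inflammation bears on the embryo's microglia. None of the 38 subunits passed the test (limma with batch as a term, Benjamini-Hochberg adjusted p under 0.05, 4 arrays per group), against 0.0946% of all tested genes, which are 11 genes. At an unadjusted p under 0.05 there were 4 members and 1447 genes. Fitted differences of the members ran from −0.92 to 0.45 with a median of −0.15, beside a median of −0.12 over all tested genes, and 28 of the 38 were negative. This direction depends on the scaling. With each array centred on the median of the tested genes, the median of all genes shifted by 0.26 and became 0.15, that of the members became 0.11, and 15 members were negative. Relative to all genes the members' median was −0.04, a value that centring cannot move, and it ran from −0.17 to −0.01 over 34 settings. Many of these settings could not move it either, such as leaving out a DAP12KO or UT array, dropping the batch term or changing the variance prior. The range is therefore no measure of how firm the sign is.

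By complex, the median difference between LPS and PBS was −0.17 in complex I, −0.10 in complex II, −0.37 in complex III, 0.12 in complex IV and −0.30 in complex V. Negative differences were held by 14 of 19 members of complex I, 4 of 4 of complex II, 3 of 5 of complex III, 1 of 4 of complex IV and 5 of 5 of complex V. With centred arrays the medians were 0.094 in complex I, 0.16 in complex II, −0.11 in complex III, 0.38 in complex IV and −0.037 in complex V, so that the sign turned in complexes I and II.

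The member with the lowest p was Ndufb9, an accessory subunit of the membrane arm of complex I. In LPS arrays its log2 values were 10.53 in batch 1, 12.19 and 11.75 in batch 2 and 11.25 in batch 4, against 11.86, 12.78 and 12.80, and 11.96 in the PBS arrays of the same batches. Each LPS value was below the PBS values of its own batch, while over all batches the groups overlapped. The fitted difference was −0.92 ± 0.24 (SE, adjusted p = 0.169), and it was −1.33, −0.82 and −0.71 within batches 1, 2 and 4. With array weights the difference was −0.82 and passed (adjusted p = 0.0401), in a fit in which 826 genes passed. A further bright probe set of Ndufb9 did not follow this order. It had 10.51, 10.80 and 10.70, and 11.64 in LPS arrays of batches 1, 2 and 4, against 10.24, 11.60 and 11.77, and 10.76 in PBS arrays, so that LPS was lower in batch 2 only (fitted difference −0.18, mean over batches 0.07).

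Ndufa4, named for complex I but found in complex IV of human cells, is counted by its name with complex I throughout. It had LPS values of 11.42 in batch 1, 12.75 and 12.13 in batch 2 and 12.24 in batch 4. The PBS values were 12.18, 13.28 and 12.71, and 12.79 in the same batches. Its difference was −0.61 ± 0.20 (SE, adjusted p = 0.232), and −0.76, −0.56 and −0.56 within the batches. Ndufb5, an accessory subunit of complex I, was the single member whose LPS and PBS arrays did not overlap, a state shared by 1.96% of tested genes. It stood at 13.10 or below in LPS arrays and at 13.14 to 13.64 in PBS arrays, with a difference of −0.34 ± 0.18 (SE, adjusted p = 0.438). The second bright probe set of Ndufb5 did overlap, at 9.15 to 10.06 in LPS arrays and 9.43 to 10.22 in PBS arrays. Ndufa2, the brightest probe set of complex I, was at 13.80 to 14.00 in LPS arrays and 13.76 to 14.39 in PBS arrays, which overlap.

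In complex V the lowest p belonged to Atp5o, the stalk protein that confers oligomycin sensitivity. LPS arrays had 10.81 in batch 1, 12.37 and 10.57 in batch 2 and 12.83 in batch 4, against 12.05, 12.97 and 11.93, and 12.98 in PBS arrays. The difference was −0.84 ± 0.35 (SE, adjusted p = 0.340), and it was −1.24, −0.98 and −0.15 within batches 1, 2 and 4. Without 1 array in turn it ran from −1.17 to −0.45, and the end nearest 0 came without LPS 2 of batch 2. The catalytic head subunits Atp5a1 (α) and Atp5b (β) had differences of −0.30 ± 0.13 (adjusted p = 0.373) and −0.57 ± 0.34 (adjusted p = 0.514). With 1 array left out Atp5a1 ran from −0.41 to −0.18, with −0.18 when the LPS or the PBS array from batch 4 was the one left out, and Atp5b from −0.87 without LPS 1 to −0.17 without LPS 2, both of batch 2. Atp5a1 stood at 13.60 to 14.29 in LPS arrays and 14.14 to 14.45 in PBS arrays, and Atp5b at 10.67 to 12.43 in LPS arrays and 11.93 to 12.80 in PBS arrays, so that the groups overlapped in both genes.

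Cyc1 of complex III had LPS values of 8.14 in batch 1, 10.30 and 9.40 in batch 2 and 10.45 in batch 4, against PBS values of 9.17, 10.14 and 9.64, and 11.27. The difference was −0.48 ± 0.37 (SE, adjusted p = 0.628), and both batch 1 arrays were the lowest. Cycs stood at 12.02, 12.65 and 12.14, and 11.37 in LPS arrays of batches 1, 2 and 4, against 12.25, 13.10 and 12.39, and 12.21 in PBS arrays (−0.44 ± 0.32, adjusted p = 0.599). Uqcrc2, a core protein of complex III, was at 11.95 to 12.34 in LPS arrays and 12.20 to 12.95 in PBS arrays (−0.49 ± 0.50, adjusted p = 0.746).

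Sdhd of complex II differed by −0.11 ± 0.17 between LPS and PBS and Sdhc, the other membrane anchor, by −0.04 ± 0.35. Cox8a was the single member higher with LPS in each of batches 1, 2 and 4 (0.15, 0.48 and 0.71), as were 8.23% of tested genes. With centred arrays 7 members (18.4%) were higher in all 3 batches, against 22.1% of tested genes. Cox8a had 10.76, 9.81 and 10.37, and 12.21 in LPS arrays, against 10.61, 9.09 and 10.13, and 11.50 in PBS arrays, with a difference of 0.45 ± 0.27 (SE, adjusted p = 0.516). Its second bright probe set gave 0.02. Cox5b, which binds zinc in complex IV, had 14.59 and 13.05 in the LPS and the PBS array of batch 1, whereas in batch 4 the LPS array was lower by 0.43.

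**Figure D2:**
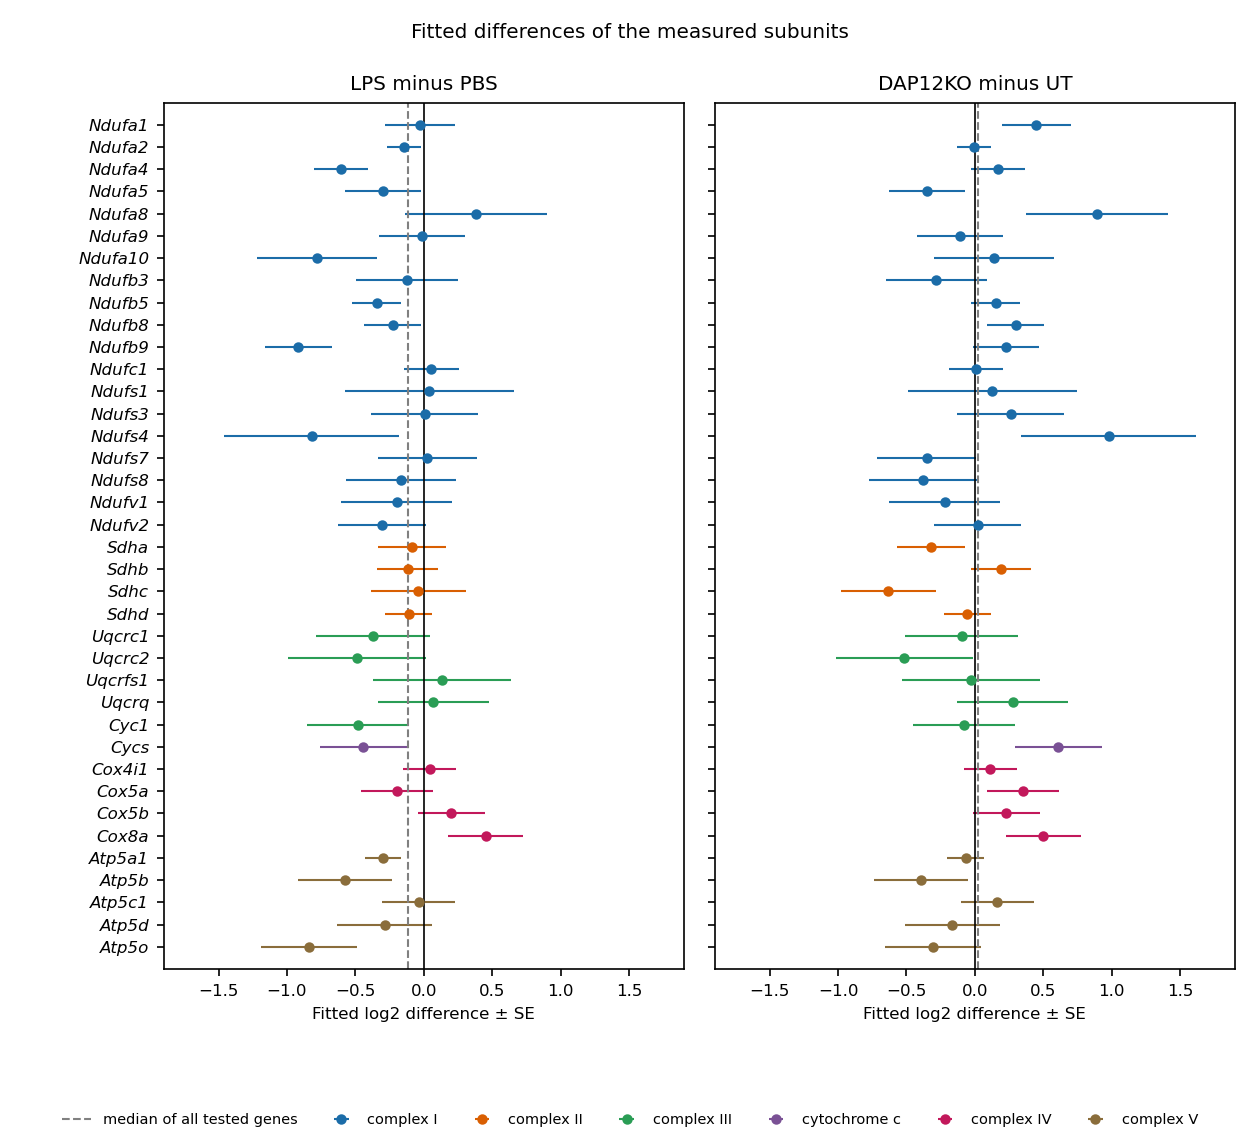
Fitted log2 differences ± SE of the 38 subunits for LPS minus PBS (left, 4 arrays per group) and DAP12KO minus UT (right), coloured by complex. The median of all tested genes is a dashed line. On the right 4 DAP12KO arrays are set against 4 UT arrays of batch 4, and the 2 UT arrays of batch 3 inform the spread alone. Values run from −0.92 to 0.45 on the left and from −0.63 to 0.98 on the right, and 0 passed the test on either side.

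Within single batches 22, 30 and 27 of the 38 members were lower with LPS in batches 1, 2 and 4, with medians of −0.23, −0.19 and −0.23 beside 0.00, −0.11 and −0.06 over all tested genes. Of all tested genes, dim ones near the lowest array value included, 15.7% were lower in all 3 batches. Among the members this held for 15 (39.5%). These are Ndufa2, Ndufa4, Ndufa5, Ndufa10, Ndufb5, Ndufb9, Ndufs4, Uqcrc1, Uqcrc2, Cyc1, Cycs, Cox5a, Atp5a1, Atp5b and Atp5o. With arrays centred on the median of tested genes the count was 6 of 38 (15.8%), against 7.86%, and the genes were Ndufa4, Ndufb9, Ndufs4, Uqcrc2, Cycs and Atp5b. Neither share of tested genes was matched to the brightness of the members. Both counts rest on 1 probe set per gene. Other bright probe sets of Ndufa5, Ndufs4 and Ndufb9 had means over batches of 0.51, 0.38 and 0.07. Those of Ndufb5, Uqcrc2, Cycs, Atp5a1 and Atp5o had negative means over batches (−0.72 to −0.08), and those of Cox5a were 0.04 and −0.12. A negative mean did not always mean lower in each batch. In batch 4 LPS was above PBS for Uqcrc2 (9.96 against 9.92), Atp5o (12.40 against 12.33) and Cycs (10.78 against 10.37, and 10.26 against 10.19). In batch 2 an Atp5a1 probe set had 11.34 and 11.12 with LPS, against 11.49 and 10.68. That of Ndufb5 and the remaining one of Atp5a1 were lower in each batch. In batch 2 the PBS arrays carried the neuron markers noted above, and the part of these in the differences of batch 2 was not tested. In batches 1 and 4 the neuron marker mean was 6.09 and 6.72 in LPS arrays and 6.71 and 7.37 in PBS arrays, and its part there was not tested either.

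The comparison of DAP12KO with UT asks what loss of DAP12 changes in untreated microglia. All DAP12KO arrays were in batch 4, so this difference is one against the 4 UT arrays of batch 4, while batch 3 informs the spread alone. Of the 38 members 0 passed in limma, with 0 at an unadjusted p under 0.05. Over all genes 0% passed and 637 had an unadjusted p under 0.05. The members' differences had a median of 0.01 (20 positive, 18 negative), beside 0.02 over all tested genes, and the lowest adjusted p was 0.908. With centred arrays 18 were positive and 20 negative. Medians were 0.13 in complex I, −0.19 in complex II, −0.08 in complex III, 0.29 in complex IV and −0.16 in complex V. Between DAP12KO and UT 0 members had arrays that did not overlap, a state of 0.8% of tested genes.

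All 4 measured subunits of complex IV had positive differences between DAP12KO and UT, from 0.11 to 0.50, none past the threshold. Cox8a led them, with 12.03, 11.96, 12.29 and 12.05 in DAP12KO arrays, against 11.63, 11.18, 11.44 and 12.09 in UT arrays of batch 4. UT 6 lay within the DAP12KO values, and the difference was 0.50 ± 0.27 (SE, adjusted p = 0.908). Cycs stood at 11.75, 12.89, 12.67 and 12.52 in DAP12KO arrays, against 12.09, 11.50, 11.16 and 12.65 in UT arrays of batch 4 (0.61 ± 0.32). Its other 2 bright probe sets gave −0.28 and −0.14 for the same arrays. Sdhc had 11.88, 11.75, 10.57 and 11.26 in DAP12KO arrays, against 12.06, 11.94, 11.67 and 12.32 in UT arrays (−0.63 ± 0.35), and its other probe set gave 0.09.

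In complex I the lowest p was that of Ndufa1, a small subunit of the membrane arm. DAP12KO arrays had 13.35, 12.94, 12.80 and 12.35, against 12.46, 11.70, 12.45 and 13.03 in UT arrays of batch 4, a difference of 0.45 ± 0.25 (SE, adjusted p = 0.908). Ndufs4, an accessory subunit mutated in some human Leigh syndrome, had the highest difference, 0.98 ± 0.64. DAP12KO arrays had 11.26, 11.45, 12.14 and 10.37, against 11.34, 7.78, 10.67 and 11.52 in UT arrays of batch 4, so UT 2 was the lowest of all. The next brightest probe set of Ndufs4 did not show this, with 10.13 in UT 2 and a difference of −0.29. In complex V Atp5b had 11.76, 12.42, 11.99 and 11.98 in DAP12KO arrays, against 12.46, 13.08, 12.14 and 12.04 in UT arrays (−0.39 ± 0.34).

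UT 2 of batch 4 stood apart in complex III as well. Uqcrc2 was at 12.82, 12.68, 12.83 and 12.57 in DAP12KO arrays, against 12.51, 15.49, 12.30 and 12.66 in UT arrays of batch 4. Its second probe set was likewise high in UT 2, at 13.93 against 9.74 to 10.27 in the other UT arrays. The difference was −0.52 ± 0.50 with UT 2 and 0.23 without it. Cyc1 had 10.72, 11.15, 10.86 and 10.31 in DAP12KO arrays, against 10.46, 11.89, 10.56 and 10.45 in UT arrays, and its difference of −0.08 ± 0.37 was 0.27 without UT 2. On UT 2 there were 68 tested genes over 2 log2 units above all other arrays, and the other arrays held 0 to 146 such genes. Its Gapdh difference was 2.23, and the part of RNA quality in these values was not tested.

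**Figure D3:**
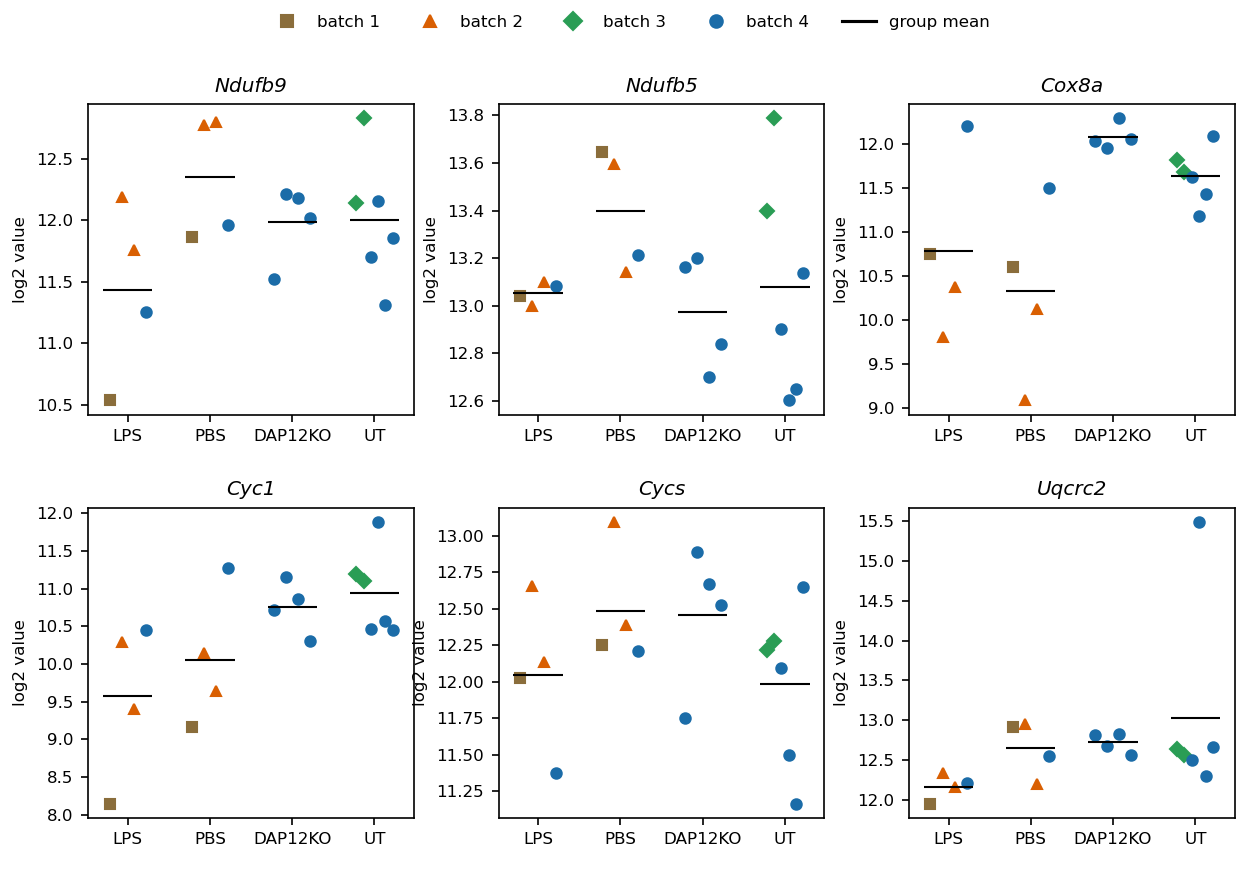
Log2 values of 6 subunits on each array, by group from left to right (LPS, PBS, DAP12KO, UT), with the batch as marker shape and colour and the group mean as a line. Ndufb9 is lower in LPS than in PBS arrays of the same batch, and 1 UT array holds Uqcrc2 at 15.49. Cox8a separates batches 1 and 2 (9.09 to 10.76), which hold LPS and PBS arrays alone, from batches 3 and 4 (11.18 to 12.29).

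The LPS minus PBS difference was set against the DAP12KO minus UT difference in the same fit. Of the 38 members 0 passed (limma), against 0% of tested genes, with 3 members and 943 genes at an unadjusted p under 0.05. Ndufb9 had the lowest p among the members, with −1.15 ± 0.34 (SE, adjusted p = 0.544).

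The comparison of batches was added after the data were seen. Batches 1, 2 and 4 are compared through the LPS and PBS arrays they hold, and batches 3 and 4 through UT arrays. In batch 4 minus batch 1, 3 of 38 members passed and were higher in batch 4, against 4.08% of tested genes in either direction (364 higher, 111 lower). In batch 4 minus batch 2, 1 member was higher, against 7.69% (352 higher, 542 lower). Batch 4 minus batch 3 had 0 members, against 0%, with 3 members and 600 genes at an unadjusted p under 0.05.

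Cox8a was higher in batch 4 than in batch 2. It stood at 10.76 and 10.61 in batch 1 and at 9.09 to 10.37 in batch 2, against 11.68 and 11.82 in batch 3 and 11.18 to 12.29 in batch 4. Batches 3 and 4 did not overlap with batches 1 and 2 in Cox8a and Cyc1, as in 2.78% of tested genes. Batches 1 and 2 hold LPS and PBS arrays alone, whereas batches 3 and 4 hold mostly DAP12KO and UT arrays. For DAP12KO and UT arrays, batch and group can thus not be told apart in that separation. LPS and PBS arrays can be compared between batches within their own groups, with 1 array of each in batch 4. In the LPS and the PBS array of batch 4 Cox8a had 12.21 and 11.50, against 9.09 to 10.76 in batches 1 and 2. Cyc1 had 10.45 and 11.27, against 8.14 to 10.30. For Cox8a batch 4 minus batch 2 was 2.00 ± 0.33 (SE, limma adjusted p = 0.00224), and the call held without any 1 of the 18 arrays. The call was lost with the mean of its probe sets (1.40, adjusted p = 0.0923). Batch 4 minus batch 1 was 1.17 ± 0.39 for the chosen probe set of Cox8a and did not pass (adjusted p = 0.102). The second bright probe set of Cox8a stood at 9.32 to 10.85 in batches 3 and 4, against 7.54 to 9.29 in batches 1 and 2.

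The other 3 members rose between batch 1 and batch 4. Cyc1 was at 8.14 and 9.17 in batch 1, 9.40 to 10.30 in batch 2, 11.10 and 11.19 in batch 3 and 10.31 to 11.89 in batch 4 (batch 4 minus batch 1, 2.20 ± 0.53, adjusted p = 0.0300). Cox5a was at 10.98 and 11.48 in batch 1, 11.80 to 12.82 in batch 2, 13.04 and 13.21 in batch 3 and 12.10 to 13.48 in batch 4 (1.82 ± 0.37, adjusted p = 0.0140). Ndufc1 was at 13.12 and 12.26 in batch 1, 13.88 to 14.41 in batch 2, 13.56 and 13.93 in batch 3 and 13.22 to 13.91 in batch 4 (1.19 ± 0.28, adjusted p = 0.0275). Only batch 1 was low in its main probe set, whereas its second one was low in batches 1 and 2 (7.48 to 10.24) against batches 3 and 4 (10.27 to 11.30). Each of these 3 calls held in 15 of 18 fits that leave out 1 array and was lost when either batch 4 array of these groups was left out. Cyc1 and Cox5a were also lost without the LPS array of batch 1, and Ndufc1 without its PBS array. With centred arrays Cox5a passed, whereas Cyc1 (1.72, adjusted p = 0.0703) and Ndufc1 (0.71, adjusted p = 0.171) did not. Ndufc1 did not pass with the mean of its probe sets (1.47, adjusted p = 0.0896) or its highest-variance one (1.74, adjusted p = 0.193) either. The Gapdh difference was 2.01 to 3.33 in batches 1 and 2, against 0.96 and 0.98 in the LPS and the PBS array of batch 4, and its part in these values was not tested. Cell markers moved with the batches too. The microglia marker mean was 13.02 and 13.13 in batch 1 and 11.75 to 13.04 in batch 2, against 13.65 to 13.83 in batch 3 and 13.68 to 13.92 in batch 4. The neuron marker mean was 8.38 to 10.11 in batch 2, against 6.72 and 7.37 in the LPS and the PBS array of batch 4. The part of these markers in the values of Cox8a, Cyc1, Cox5a and Ndufc1 was not tested.

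**Figure D4:**
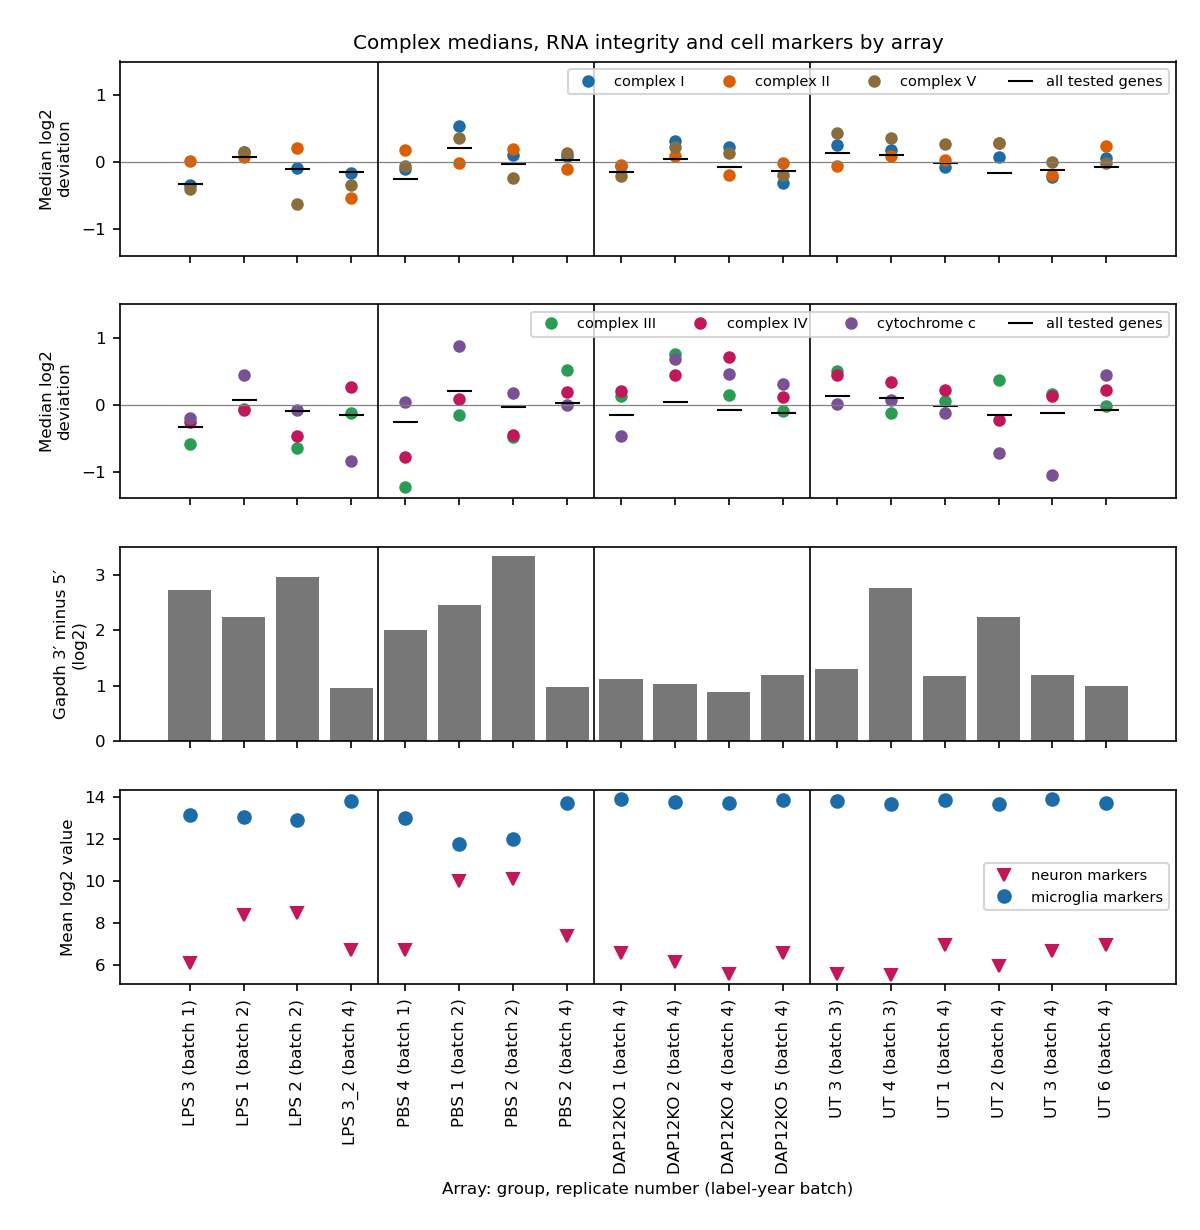
For each array, the median log2 deviation of the members of each complex and of all tested genes (upper panels), the Gapdh 3′ minus 5′ difference, and the mean log2 value of neuron and microglia markers (lowest panel). The Gapdh difference is 2.01 to 3.33 in batches 1 and 2, and the neuron markers reach 10.02 and 10.11 in the PBS arrays of batch 2.

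Other genes of oxidative metabolism were read from lists of known members. Of 33 further subunits, 31 assembly factors, 15 genes of the TCA cycle and 20 of glycolysis, 0 passed in either comparison. Further subunits had medians of −0.06 for LPS minus PBS and 0.11 for DAP12KO minus UT, with 22 of 33 negative in the first comparison and 21 of 33 positive in the other. Named by lowest p were Ndufb2 (−0.85 ± 0.40) and Atp5h (−0.15 ± 0.10) for LPS minus PBS, and Ndufb6 (−0.86 ± 0.30) and Atp5e (0.40 ± 0.24) for DAP12KO minus UT. Assembly factors had medians of −0.09 and 0.17 in the same order of comparisons. Atpaf2, which assembles the head of complex V, differed by 2.44 ± 0.62 between LPS and PBS (adjusted p = 0.155), Uqcc2, for complex III, by −1.01 ± 0.36, and the complex I factors Ndufaf4 and Ndufaf5 by 0.88 ± 0.44 and 2.75 ± 1.39 between DAP12KO and UT. Of 8 tissue-restricted isoforms 3 were tested, with medians of −0.06 and 1.18 and 0 past the threshold. Cox6a2 and Cox6b2 differed by 0.75 ± 0.49 and −0.61 ± 0.79 between LPS and PBS, and Cox7a1 and Cox6b2 by 1.18 ± 0.44 and 1.52 ± 0.79 between DAP12KO and UT. Group means of Cox7a1 and Cox6b2 in these comparisons were 2.77 to 4.16, close to the lowest array value.

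Regulators of mitochondrial biogenesis had medians of 0.01 and 0.23 over 13 genes, with 0 past the threshold. Ppargc1a, the coactivator PGC-1α, averaged 2.36 ± 0.33 in LPS arrays (SD, n = 4), under the filter value of 2.49 and near the lowest value of the arrays, so that no size is given for its difference. The SD over the 4 PBS arrays was 3.25, the test was not passed (adjusted p = 0.216), and the fitted difference was 0 once PBS 1 and PBS 2 of batch 2 were left out. Tfb2m, a mitochondrial transcription factor, differed by −1.80 ± 0.74 between LPS and PBS, and Pprc1 and the polymerase Polg by 0.93 ± 0.37 and 0.72 ± 0.58 between DAP12KO and UT. The TCA cycle had medians of 0.01 for LPS minus PBS and 0.12 for DAP12KO minus UT, and glycolysis 0.03 and −0.02. In the TCA cycle Dlst and Fh1 differed by −0.96 ± 0.56 and −0.72 ± 0.43 between LPS and PBS, and Sucla2 and Idh3g by 0.81 ± 0.39 and −0.70 ± 0.35 between DAP12KO and UT. In glycolysis the lactate exporter Slc16a3 and the kinase Pgk1 differed by 1.35 ± 0.59 and −0.52 ± 0.24 between LPS and PBS, and Pfkm and Pfkl by −1.48 ± 0.79 and 1.22 ± 0.68 between DAP12KO and UT. Genes of the mitochondrial ribosome, which makes the subunits encoded in mitochondrial DNA, had 55 of 76 members (72.4%) above 0 for DAP12KO minus UT with a median of 0.31, against 51.6% of all tested genes, and a median of −0.09 for LPS minus PBS. In either comparison 0 of them passed. Mrpl48 and Mrps27 differed by −0.81 ± 0.33 and 1.58 ± 0.69 there, and Mrps31 and Mrpl18 by −2.09 ± 0.69 and −0.91 ± 0.33 between LPS and PBS. ND5, the 1 listed gene of mitochondrial DNA, differed by −0.0025 between LPS and PBS and by −0.14 between DAP12KO and UT.

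Members not described above passed no test between groups. In complex I the core subunits Ndufs1, Ndufs3, Ndufs7, Ndufs8, Ndufv1 and Ndufv2, which carry the iron-sulfur clusters and the flavin or their scaffold, differed by −0.31 (Ndufv2) to 0.042 (Ndufs1) between LPS and PBS, and by −0.38 (Ndufs8) to 0.26 (Ndufs3) between DAP12KO and UT. The accessory subunits Ndufa5, Ndufa9, Ndufb3 and Ndufb8 differed by −0.30 (Ndufa5) to −0.010 (Ndufa9) between LPS and PBS, and by −0.35 (Ndufa5) to 0.30 (Ndufb8) between DAP12KO and UT. Ndufa8 differed by 0.38 ± 0.52 between LPS and PBS, with 2.37, −0.16 and −0.54 within batches 1, 2 and 4, so that 1 batch set the sign. Ndufa10 differed by −0.78 ± 0.44, with −2.28 in batch 1. Between DAP12KO and UT, Ndufa8 differed by 0.90 ± 0.52 and Ndufa10 by 0.14 ± 0.44. The catalytic subunits of complex II, Sdha (flavin) and Sdhb (iron-sulfur), differed by −0.084 and −0.12 between LPS and PBS, and by −0.32 and 0.19 between DAP12KO and UT. In complex III Uqcrfs1 differed by 0.13 and −0.028 and the core protein Uqcrc1 by −0.37 and −0.096 in these comparisons, and the small subunit Uqcrq by 0.071 and 0.28. Cox4i1, the common isoform of subunit IV, differed by 0.044 and 0.11, and in complex V the γ subunit Atp5c1 by −0.037 and 0.17 and the δ subunit Atp5d by −0.28 and −0.16.

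Several probe sets above the filter were at hand for 21 members. All had the same sign in 13 of these members for LPS minus PBS and in 7 for DAP12KO minus UT. The filter also lets dim probe sets through. In Cox8a such a probe set, with a mean of 2.60, had −1.71 for LPS minus PBS, against 0.45 and 0.02 in the bright ones. In 12 members the chosen probe set carries a suffix (x or s) that marks probes able to match other transcripts, Cox8a, Sdhd and Sdhc among them, and their values may include near-identical copies.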

How the data were processed

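RNA of 18 samples was hybridised to Affymetrix Mouse430_2 arrays after amplification with Ovation Pico WTA v2, per the labels' protocols. The authors deposited log2 expression values for 45101 probe sets, made with RMA per the submitters' processing notes; the sources used here give neither its version nor whether arrays were normalised together. Values were used as deposited. Of the probe sets 34958 name 1 gene, 932 several and 9211 none. A filter at the 40th percentile of probe-set means (log2 2.49) left out dim genes, so that 11630 of 18194 were tested. All 18 arrays were fitted with limma 3.58.1 in R 4.3.3 (a mean per group, batch as an additive term, intensity trend, 11 residual degrees of freedom). Tests are two-sided with Benjamini-Hochberg adjustment over all tested genes and a threshold of 0.05. Tested on simulated data of 11630 genes, the fit recovered 37% of log2 changes of 2 and 86% of changes of 4 for LPS minus PBS, and 36% and 88% for DAP12KO minus UT. These changes were placed in genes drawn from all tested genes, whose median SD was 1.00, against 0.52 for the members. Recovery among the members was not measured apart. Members given in full are, for each complex, the brightest probe set and the lowest p in each comparison, and any member past a threshold; Ndufa4, Ndufb5 and Ndufs4 were added after their values were seen. From each list the 2 lowest p per comparison are named. Members and lists were chosen with earlier results of these data known. Alternatives covered batch, arrays, filter, probe set, scaling, variance prior, array weights and replicate number as a block. Figures were drawn with matplotlib 3.10.9.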

Additional observations from a re-analysis of the deposited data

Results flagged for a closer look

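In 10 of 152 sets of values of a member in a group, 1 array stood apart from the others of its group by Dixon's criterion, which chance alone meets in about 1 of 20. They concern 9 members. UT 2 of batch 4 accounts for 3 of them, with Uqcrc2 at 15.49 (others 12.30 to 12.66), Ndufs4 at 7.78 (others 10.67 to 11.52) and Cox5a at 12.10 (others 12.92 to 13.21). PBS 4 of batch 1 held Sdhd at 12.94 (others 12.44 to 12.46) and Uqcrc1 at 11.04 (others 9.95 to 10.11). Among DAP12KO arrays, DAP12KO 5 held Ndufa5 at 12.15 (others 13.53 to 13.76) and DAP12KO 4 held Sdhd at 12.33 (others 12.44 to 12.46). LPS 3 of batch 1 held Ndufc1 at 13.12 (others 13.85 to 13.94), and LPS 1 of batch 2 held Atp5d, the δ subunit of complex V, at 12.06 (others 11.26 to 11.39). UT 1 of batch 4 held Atp5a1 at 14.41 (others 14.06 to 14.17).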

How the results depend on the processing

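The count of members past the threshold stayed at 0 for DAP12KO minus UT under all alternatives run, and for LPS minus PBS under all but array weights, which gave 1 (Ndufb9). The count over all genes for LPS minus PBS was 11 as reported. It was 0 without the batch term, with only the 2 groups compared, with a filter at the 60th percentile and with arrays centred on the median of tested genes, 1 with no filter, and 3 with a constant variance prior. It was 5 without batch 2 and with the highest-variance probe set, 6 with the mean of probe sets, 94 with only batch 4 and 826 with array weights. With the replicate block (replicate number within a batch, LPS with PBS and DAP12KO with UT) it was 17, and the block changed no call of a member. Same-numbered LPS and PBS arrays of batch 2 deviated alike (Pearson r = 0.53 across genes, which are not independent replicates), and those of DAP12KO and UT did not (−0.01 and 0.01). Without UT 2 of batch 4 and both PBS arrays of batch 2, chosen after seeing the data, it was 7. Leaving out 1 array gave 0 to 120 (120 without the PBS array of batch 4), and 0 to 6 for DAP12KO minus UT (6 without DAP12KO 5).

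Centring arrays moved the members' median for LPS minus PBS to 0.11 and turned Ndufa2 (0.12), Ndufa1 (0.23), Sdhd (0.15), Sdhc (0.22) and Atp5h (0.11). Quantile normalisation turned Ndufa1 (0.029) and Sdhc (0.057). Only batch 4, with 1 LPS and 1 PBS array, turned Ndufa1 (0.19), Sdhd (0.020), Cox5b (−0.43), Fh1 (0.051) and Slc16a3 (−0.83). Without batch 2, without its PBS arrays, or without these and UT 2, Ndufa1 was 0.088. The highest-variance probe set turned Sdhc (0.023), Cox5b (−0.94), Cox8a (−1.71) and Pgk1 (0.22), and the mean of probe sets Cox5b (−0.10) and Cox8a (−0.41). Array weights turned Sdhc (0.12) and Cox5b (−0.083). Leaving out 1 array gave −0.10 to 0.053 for Ndufa1, −0.16 to 0.018 for Sdhd, −0.39 to 0.24 for Sdhc and −0.25 to 0.41 for Cox5b.

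For DAP12KO minus UT, the fit without UT 2 and both PBS arrays turned Ndufa2 (0.0066), Sdhd (0.067), Uqcrc2 (0.23) and Cyc1 (0.27). The highest-variance probe set turned Sdhd (1.08), Sdhc (0.090), Cycs (−0.14), Atp5a1 (0.11), Sucla2 (−0.92), Pfkl (−0.33) and Mrpl48 (0.64), and the mean of probe sets Sdhd (0.51) and Sucla2 (−0.052). No batch term turned Ndufb9 (−0.014), and array weights Sdhd (0.0024) and Cyc1 (0.13). Leaving out 1 array gave −0.078 to 0.084 for Ndufa2, −0.18 to 0.067 for Sdhd, −0.83 to 0.23 for Uqcrc2, −0.21 to 0.27 for Cyc1 and −0.12 to 0.0051 for Atp5a1.

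For batch 4 minus batch 1, 1 member passed with centred arrays (Cox5a), 2 with the mean of probe sets and with the highest-variance probe set (Cyc1 and Cox5a), 3 with quantile normalisation and 0 to 3 with 1 array left out. For batch 4 minus batch 2, 2 passed with centred arrays (Cox5a and Cox8a), 1 with the mean of probe sets (Cox5a) and 0 with the highest-variance probe set. For Cox8a the highest-variance probe set was the dim one described above, which also entered the mean. The cause of these changes was not tested.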
